A study of Gossypium barbadense with 4 samples.

Results

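Anthers and ovules of open cotton flowers were compared within 2 genotypes of Gossypium barbadense, the semigametic line 57-4 and the non-semigametic cultivar Pima S-1 from which it arose as a natural mutant. All 4 arrays of the series were used, 1 for each tissue and genotype, and all tissue was taken at 0 days post-anthesis (DPA). For every array RNA of 3 biological replicates, 10 flowers each, was pooled, so plant-to-plant variation within a condition was not measured. The values are MAS5 signals, linear intensities that summarise the probes of a probe set. A floor of 50 was put under the signals before log2 ratios of anther to ovule were taken in each genotype, for 24029 probe sets, after 103 control probe sets of the 24132 had been left out. Where the dimmer signal was under 50 a fold is a lower bound and is written "at least", and where both were under 50 no ratio is given. A ratio in both genotypes was obtained for 13919 probe sets.

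An anther at flowering is a pollen-bearing organ whose inner nutritive layer, the tapetum, has largely broken down, while an ovule encloses the embryo sac in integuments whose outer cells are starting to become fibre. In semigamy the sperm nucleus enters the egg but does not fuse with the egg nucleus, so both organs are of interest in the mutant. The RNA came from whole organs, and fewer cells of a type cannot be told apart from less RNA per cell.

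The study's files do not name the genotype of the ovule arrays alike. In its list of ovule genes, the signals headed with the name of the other genotype equal the deposited signals in 1414 of 1414 probe sets (tolerance 0.06), and in 0 of them do the headings and the deposited labels match. The directions that the study gives in ovules for several genes, by array and by RT-PCR, run with the deposited labels, which were kept. The main counts, the leading genes and the genes with a contrast in 1 genotype are also given with the ovule arrays exchanged. The mean of the 2 anther to ovule ratios does not depend on that label unless a signal is under 50.

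Product names were available for 1152 probe sets, of which 1059 had a ratio in both genotypes. All are on the study's lists of genes that differ between the genotypes, so they are a selected subset. No product name held a word of the pollen, anther and tapetum list, and the anther label was therefore not checked against markers. Summed over the 21 probe sets with ovule or fibre words, the signal was 16971 (57-4) and 17080 (Pima S-1) in anthers, and 21808 (57-4) and 32902 (Pima S-1) in ovules. On each array 1 to 3 of them were under 50. Of the 20 with a ratio in both genotypes, 3 were at least 2-fold higher in ovules of both. The 1 that was at least 2-fold higher in anthers of both was fiddlehead-like protein (AY072823). Over the 1059 named probe sets these numbers were 117 and 21. The median log2 ratio of the list was -0.16 in 57-4 and -0.59 in Pima S-1, against -0.11 and -0.27 over the named probe sets.

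The arrays had a median signal of 54.5 to 76.0, and 12411 to 14673 probe sets reached 50. The ovule arrays held more very bright probe sets, with 222 and 244 reaching 5000 against 166 and 127 on the anther arrays. The brightest 100 probe sets took 15.0% and 15.4% of the summed signal in ovules and 10.7% and 9.18% in anthers. The ratio of 3' to 5' signal of the cotton actin control, a sign of RNA integrity, was 15.2 (anthers) and 21.1 (ovules) for 57-4 and 9.20 (anthers) and 11.8 (ovules) for Pima S-1. For the ss1 control it was 17.4 and 20.4 in 57-4 but 8.35 and 4.18 in Pima S-1. The spiked hybridization controls had a median anther to ovule log2 ratio of -0.15 in 57-4 and -0.20 in Pima S-1. The part of these differences in the results was not tested.

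In both genotypes 707 probe sets (5.08% of 13919) had an anther signal 2-fold or more above that of the ovule, and 726 (5.22%) the reverse. The counts were nearly equal, but the sizes were not. At least 4-fold in both genotypes was reached by 45 probe sets in anthers and 238 in ovules, and at least 8-fold by 1 and 85. No probe set was 16-fold higher in anthers of both genotypes, while 35 were in ovules and 13 of them reached 32-fold. The ratio ran from -7.37 to 3.10 on the log2 scale in 57-4 and from -7.31 to 4.15 in Pima S-1. Presence by signal showed the same asymmetry for bright genes. A signal of at least 50 on both anther arrays and under 50 on both ovule arrays was found for 737 probe sets, and the reverse for 319. With at least 200 in the brighter tissue these numbers were 1 and 51.

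**Figure D1:**
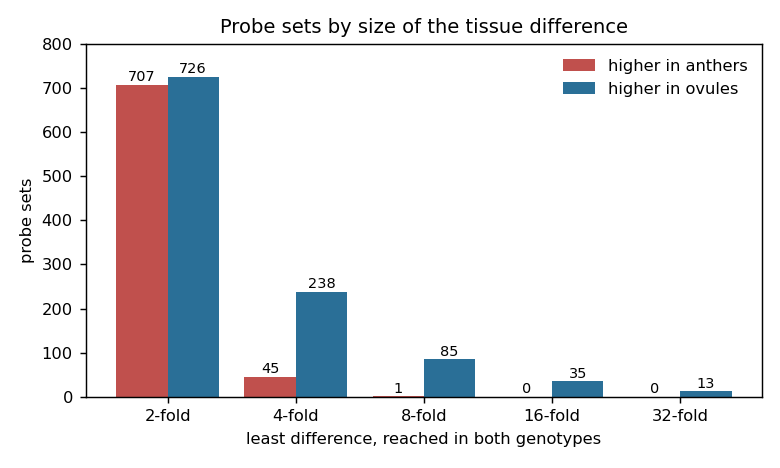
Number of probe sets (vertical axis) whose signal differed between anthers and ovules by at least the fold on the horizontal axis in both genotypes. The 2 directions are nearly equal at 2-fold (707 and 726) and diverge from 4-fold (45 and 238) onward.

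How the calls divide between the tissues depended on the scaling of the arrays. Of the probe sets counted in both genotypes 49.3% were higher in anthers, against 65.1% after scaling to the hybridization controls, 64.1% without a floor and 34.0% with ratios centred on their median. The median ratio of all probe sets was 0.12 in 57-4 and 0.20 in Pima S-1 on the log2 scale, and scaling on the controls moved it to 0.24 and 0.37. With the ovule arrays exchanged, 654 were higher in anthers and 664 in ovules, of which 520 and 592 were among those counted with the deposited labels. Nearest the limit, the smaller of the 2 log2 ratios was 1.0002 just inside and 0.997 just outside on the anther side.

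The ratios of the 2 genotypes, which share no array, had a Pearson correlation of 0.75 and a Spearman correlation of 0.64 across 13919 probe sets, which are not independent replicates. The gap between the ratios had a median size of 0.37 on the log2 scale and was at least 1 in 12.1% of probe sets. From this gap a single ratio had an SD of 0.46, and this was 0.45 over the 8999 probe sets with a brightest signal of at least 200. Arrays of the same tissue were the more alike, with Pearson correlations of log2 signals of 0.975 for anthers and 0.967 for ovules against 0.911 to 0.928 between tissues.

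**Figure D2:**
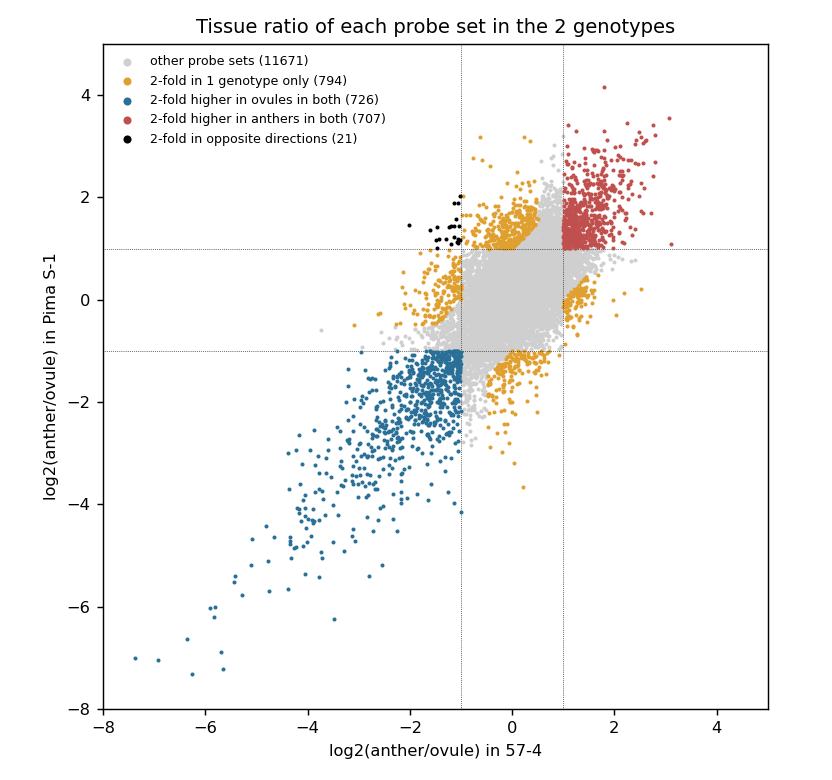
Log2 ratio of anther to ovule signal of each probe set in 57-4 (horizontal axis) and Pima S-1 (vertical axis), with dotted lines at 2-fold. The ovule-high probe sets reach log2 ratios below -7 in both genotypes, while the anther-high ones stay at or under 3.10 in 57-4 and 4.15 in Pima S-1.

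The tissue effect over both genotypes was tested with limma, in which genotype was a term and the gap between the genotypes was the error. At an adjusted p under 0.05, 1504 of 14484 probe sets (10.4%) were higher in anthers and 1286 (8.88%) in ovules. The smallest effect called was 0.55 on the log2 scale. Of the probe sets at least 2-fold apart in both genotypes, 694 of 707 and 721 of 726 were called. The fit uses the same 2 ratios that defined these probe sets, so the overlap is no separate evidence for them. The fit has 1 residual degree of freedom and takes most of its error from all probe sets together, and with the ovule arrays exchanged it called 846 and 912, of which 1729 were among the 2790 called with the deposited labels. With any 1 array dropped, which leaves 1 tissue with a single array and no room for the genotype term, 0 were called, and 2666 to 3870 had an unadjusted p under 0.05. Among the 1059 named probe sets, 50 were called higher in anthers and 203 in ovules.

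The strongest named gene of ovules was (+)-delta-cadinene synthase isozyme XC14 (U23205), the enzyme that commits farnesyl pyrophosphate to gossypol and related sesquiterpenes of cotton. Its ovule signals were 4904 (57-4) and 4946 (Pima S-1), and its anther signals 60.2 and 14.5. It was 81.5-fold higher in ovules of 57-4 and at least 98.9-fold higher in those of Pima S-1, a mean log2 ratio of -6.49 ± 0.20 (SD, n = 2 genotypes, adjusted p = 4.45e-06). The Pima S-1 anther signal was set to the floor of 50. The size of the mean is therefore a lower bound, and the SD and p-value depend on the floor. Farnesyl pyrophosphate synthase (AI054617), which makes the substrate of cadinene synthase, had signals of 441 and 828 in ovules against 16.5 and 77.2 in anthers (adjusted p = 0.00066). Mevalonate diphosphate decarboxylase (CD486444), an earlier enzyme of the same route, had 286 and 393 in ovules against 72.1 and 142 in anthers (adjusted p = 0.011). All 3 were thus higher in both ovule arrays than in either anther array. A further probe set, farnesyl pyrophosphate synthetase 1 (DT466688), had 318 and 2304 in anthers against 889.5 and 1021 in ovules, so that it was higher in ovules in 57-4 and in anthers in Pima S-1, with no call. Of 7 measured terpenoid probe sets 3 were called higher in ovules and 0 in anthers, where 203 and 50 of all 1059 named probe sets were. The median log2 ratio of the list was -1.48 in 57-4 and -1.16 in Pima S-1, against -0.11 and -0.27 over the named probe sets and 0.13 and 0.20 over all 13919.

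A 2-oxoglutarate-dependent dioxygenase (DN827346) was nearly as far apart, with 9307 and 7762 in ovules of 57-4 and Pima S-1 against 184 and 52.3 in anthers. This was 50.6-fold in 57-4 and 148-fold in Pima S-1 (adjusted p = 6.63e-05). Pathogenesis-related protein 10 (CD485617), of a defence protein family, had 1009.8 and 1376 in ovules and 5.8 and 27.6 in anthers, at least 20.2-fold and at least 27.5-fold higher. HyPRP1 (DT047683), named a plastid ribosomal protein in the product list, had 5569 and 7331 in ovules against 279 and 220 in anthers. The cytochrome P450 DDWF1 (DT465682) had 2211 and 2996 against 131 and 106. Glutathione S-transferase (DW510592), a conjugating enzyme of detoxification, was under 50 on both anther arrays and stood at 738 and 1035 in ovules. Acyl carrier protein (DW240158), which holds the growing chain in fatty acid synthesis, had 901 and 1668 in ovules and 68.4 and 43.1 in anthers. The 12 leading ovule genes were chosen by the smaller of their 2 ratios. Their ovule and anther signals therefore lie far apart by choice. All 12 stayed at least 2-fold higher in ovules of both genotypes with the ovule arrays exchanged.

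Metallothioneins, small cysteine-rich proteins that bind metal ions, were higher in ovules in 3 of 3 measured probe sets by limma. Over all named probe sets limma called 203 of 1059 higher in ovules. The signal of DN817800 was 2545 and 2072 in ovules against 154 and 27.6 in anthers (adjusted p = 0.000159). The probe set AY857933 had 10801 and 9664 in ovules against 1550 and 228 in anthers (adjusted p = 0.00189). In both probe sets the anther signal, under 50 for DN817800, was lower in Pima S-1 than in 57-4 while the ovule signals were close, so the log2 ratio was -4.05 and -2.80 in 57-4 and -5.37 and -5.41 in Pima S-1. The CPRD2 protein (CA993642) and the sorbitol related enzyme (CO090737) were also among the 12 leading ovule genes, with mean log2 ratios of -4.06 and -4.10. The first is a lower bound in size, because the CPRD2 signal in Pima S-1 anthers was under 50. PSBY (CD485628), a photosystem II protein, was also among the 12, with 732 and 1004 in ovules against 34.9 and 26.7 in anthers.

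The anther side had fewer names and smaller ratios. Among the 50 probe sets with the largest ratio in both genotypes and a signal of at least 200, only 1 had a product name on the anther side and 10 on the ovule side. The named gene with the largest anther ratio was XYL4 (DT047910), whose Arabidopsis namesake is a beta-xylosidase of the cell wall. Its anther signals were 740 (57-4) and 1305 (Pima S-1) and its ovule signals 153 and 198, 4.83-fold and 6.60-fold (adjusted p = 0.00051). Fiddlehead-like protein (AY072823), whose namesake in Arabidopsis elongates fatty acids of the epidermis, had 579 and 725 in anthers against 118 and 269 in ovules. It belongs to the list of ovule or fibre words. The receptor-like kinase FERONIA (DR455120), known in Arabidopsis from pollen tube reception in the ovule, had 389 and 487 in anthers against 73.3 and 187 in ovules. Another probe set with the FERONIA name had a mean log2 ratio of -0.087. A SCARECROW transcription factor (CO085934) had 302 and 619 in anthers against 92.5 and 167 in ovules. The 4 probe sets given by accession were chosen for large anther ratios in both genotypes, and in each both anther signals lay above both ovule signals.

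The alpha subunit of ATP synthase (DW242450), part of the ATP-making complex, had 3038 and 3136 in anthers against 1459 and 481 in ovules (adjusted p = 0.00901). The cytochrome P450 CYP78A29 (DT563385) had 980 and 1659.6 against 373 and 743, and a phosphatidylinositol kinase-like gene (DT048141) 787 and 944 against 324 and 450.4. In these 3 genes the Pima S-1 anther signal was the highest of the 4 arrays. Differences of about 2-fold in the same direction were found for calnexin (DW239883), a chaperone of the endoplasmic reticulum, with 2464 and 3213 in anthers against 1080 and 1477 in ovules. A phytosulfokine receptor (DT550027), which binds a peptide growth factor, had 329 and 454 against 156 and 214. Phenylalanine ammonia lyase (CO092077), the entry enzyme of phenylpropanoid synthesis, had 369 and 443 against 147 and 213. Retinoblastoma-related protein 1 (DW482450), a brake on the cell cycle, had 444 and 740 against 185 and 358, and alpha-expansin 4 (DR455901), which loosens cell walls, 2035 and 3019 against 1002 and 1255. Adjusted p-values of these last 5 genes lay between 0.00321 and 0.0272. With the ovule arrays exchanged 6 of the 12 leading anther genes stayed at least 2-fold in both genotypes, XYL4, fiddlehead-like protein and FERONIA among them. The other 6 dropped under 2-fold in 57-4, CYP78A29 the furthest with a log2 ratio of 0.40, then the phytosulfokine receptor (0.62), calnexin (0.74), phenylalanine ammonia lyase (0.79), the phosphatidylinositol kinase-like gene (0.80) and SCARECROW (0.85). Retinoblastoma-related protein 1 and alpha-expansin 4 dropped to 0.31 and 0.70, and the limma calls of the phytosulfokine receptor and phenylalanine ammonia lyase were lost (adjusted p = 0.0819 and 0.0504).

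**Figure D3:**
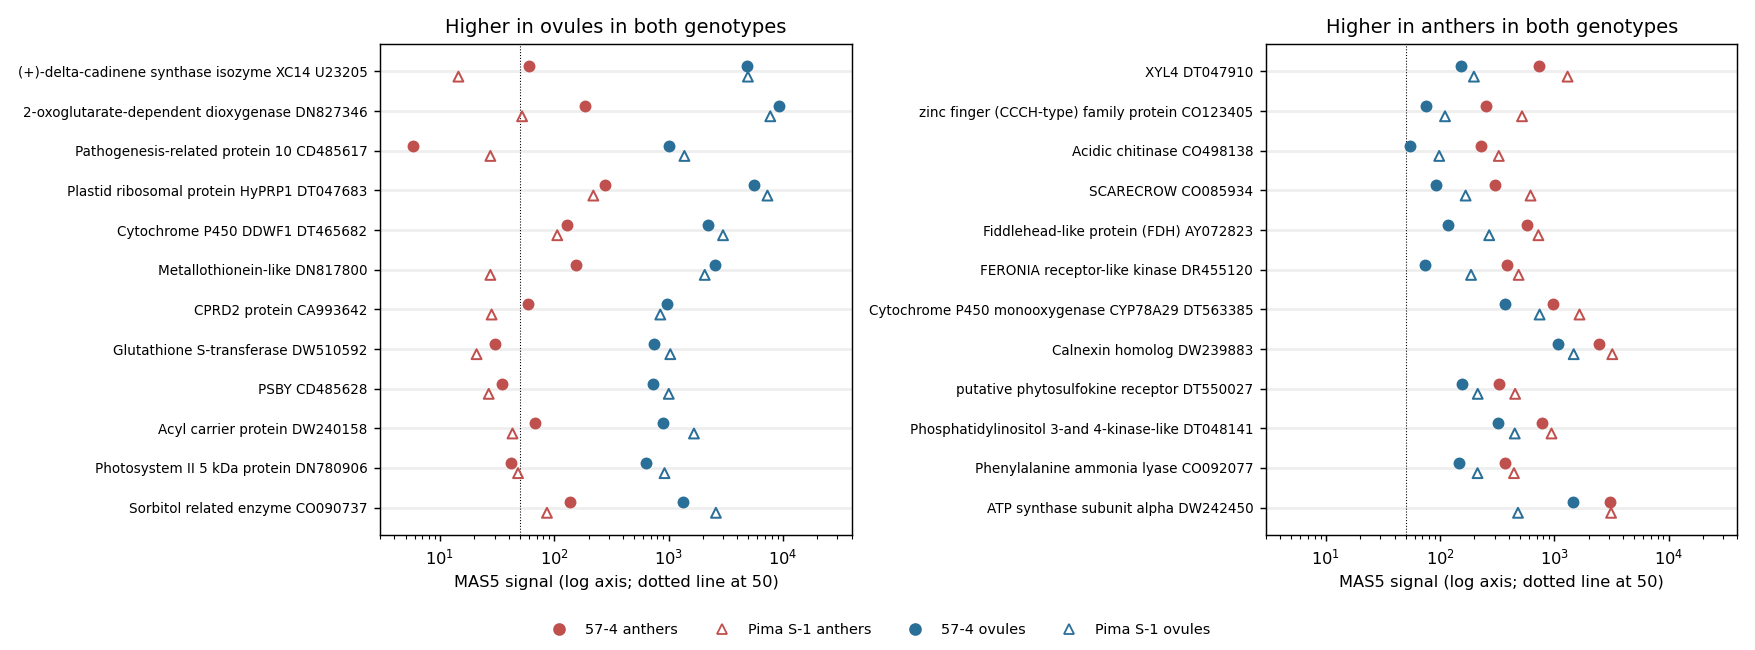
MAS5 signals (horizontal log axis, dotted line at 50) of the 12 named genes with the largest difference in each direction in both genotypes. Red marks anthers, blue ovules, filled circles 57-4 and open triangles Pima S-1. Several ovule-high genes are under 50 in anthers, while none of the anther-high genes is under 50 in ovules.

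By the smaller of the 2 genotypes' ratios, the highest-ranked probe sets had no product name here. The first of 2 on the ovule side had signals of 9102 and 7830 in ovules of 57-4 and Pima S-1 and 55.1 and 61.2 in anthers, 165-fold and 128-fold. The second had 14056 and 15642 in ovules against 116 and 119 in anthers, 121-fold and 131-fold. Of 2 on the anther side, the first had 1042 and 1311 in anthers against 124 and 111 in ovules, and the second 1076 and 1255 against 156 and 135. In these 4 probe sets the signals of a tissue were close in the 2 genotypes.

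Words in the product names defined the gene groups. Since the named probe sets were selected for a difference between genotypes, the groups are set against the named probe sets as a whole, of which 1.98% had the 2-fold anther excess in both genotypes and 11.0% the ovule excess. The medians of all named probe sets were -0.11 in 57-4 and -0.27 in Pima S-1 on the log2 scale. By limma 203 of these 1059 probe sets were called higher in ovules and 50 in anthers.

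Photosynthesis genes were at least 2-fold higher in ovules of both genotypes in 7 of 14 measured probe sets and in anthers in 0. By limma 7 were called higher in ovules and 0 in anthers. Ratios were below 0 in 8 of the 14 in 57-4 and in 11 in Pima S-1. Rubisco activase 1 (AF329934) had an anther excess only in 57-4, at 198 in anthers against 48.8 in ovules, with 50 and 38.1 in Pima S-1. Photosystem II 5 kDa protein (DN780906) was under 50 on both anther arrays, at 41.8 and 48.2, and reached 631 and 922 in ovules. Oxygen-evolving enhancer protein 1 (CO081952), a subunit of the water-splitting complex, had 1081 and 1494 in ovules against 123 and 129 in anthers (adjusted p = 0.000165). Enhancer protein 2 (CO093680) had 733 and 1395 against 123 and 82.3, and a chlorophyll a/b binding protein (CA993199), part of the light-harvesting antenna, 6189 and 3109 against 1797 and 865. A small chain of ribulose bisphosphate carboxylase, the carbon-fixing enzyme (CA994331), had 2375 and 2730 in ovules against 406 and 74.8 in anthers. The list has a median log2 ratio of -0.59 in 57-4 and -2.40 in Pima S-1, and the mean of both turned to 0.18 over its 4 probe sets designed for 1 transcript. The summed signal of its 16 listed probe sets in anthers was 10754 (57-4) and 6670 (Pima S-1), and in ovules 17235 and 17829.

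Enzymes of glycolysis and fermentation were at least 2-fold higher in ovules of both genotypes in 6 of 16 measured probe sets and in anthers in 1. Alcohol dehydrogenase A alone supplied 5 of the 16, with 3 of those higher in ovules and the 1 higher in anthers. None of the 3 fructose-bisphosphate aldolase probe sets (mean log2 ratios of 0.03 to 0.43) or the 2 of phosphoglycerate kinase (-0.74 and 0.48) was counted in either direction. Alcohol dehydrogenase A (BE054959), which ends ethanolic fermentation, had 15104 and 14414 in ovules against 2122 and 758 in anthers (adjusted p = 0.000457). Another probe set with that name (CO122895) went the other way, at 106 and 537 in anthers and 7.4 and 25.0 in ovules, at least 2.12-fold and at least 10.7-fold higher in anthers (adjusted p = 0.0257). Glyceraldehyde 3-phosphate dehydrogenase (AI055303) had 1377 and 2920 in ovules against 419 and 624 in anthers, and triosephosphate isomerase (AI727142) 3832 and 7575 against 1775 and 1882. In the list of respiration 3 of 19 probe sets were at least 2-fold higher in ovules of both genotypes, all 3 of the citric acid cycle. Citrate synthase (DR462694) had 361 and 708 in ovules against 140 and 166 in anthers, and the catalytic subunit 5 of isocitrate dehydrogenase (AI729176) 269.7 and 443 against 97.3 and 110.4.

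Probe sets of the same product name can differ because they address different gene copies. Of 140 product names with at least 2 measured probe sets, 2 had members with a 2-fold excess in anthers of both genotypes beside members with one in ovules, alcohol dehydrogenase A and acidic chitinase. For acidic chitinase, an enzyme against fungal walls, probe set CO498138 had 229 and 327 in anthers against 54.1 and 98.3 in ovules, and DN827466 had 485 and 719 in ovules against 77.3 and 125 in anthers. Within a name the range of mean log2 ratios had a median of 0.69. Some genes described here had a wider range, from -0.087 to 1.89 for FERONIA and from -4.13 to 0.24 for glutathione S-transferase. It was -4.45 to 0.52 for cytochrome P450 DDWF1, -3.26 to 0.24 for beta-ketoacyl-CoA synthase and -0.72 to 0.48 for heat shock protein 90.

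Among hormone genes, ACC oxidase 1 (DQ116442), which releases ethylene, had 3797 and 3541 in ovules against 439.7 and 289.9 in anthers (adjusted p = 7.05e-05). The ethylene-responsive element binding protein ERF2 (DT466387) had 410 and 672 in ovules against 88.1 and 98.3 in anthers. Auxin genes were called higher in ovules in 5 of 8 probe sets and in anthers in 0, beside 203 and 50 of the 1059 named probe sets. The auxin-repressed protein ARP1 (AW187790) had 6920 and 9641 in ovules against 2002 and 2168 in anthers (adjusted p = 0.000613), and a GH3 family protein (CO090341), of enzymes that conjugate auxin, was under 50 in both anther arrays and at 171 and 241 in ovules. A gibberellin regulated protein (DR460630) had 2253 and 1609 in ovules against 1008 and 310 in anthers. Of 4 jasmonate genes 0 were called in either direction, with medians of 0.23 in 57-4 and 1.29 in Pima S-1.

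Wall and cytoskeleton genes were divided. The list of pectin enzymes, which took in names of pectinesterase inhibitors, had 3 of 4 probe sets higher in ovules. Of these DN779868 and DR460697 are named as inhibitors, the former also as CVIF1, an inhibitor of fructosidase. The other (CO127914) is named a pectinesterase precursor, with 366 and 530 in ovules against 79.7 and 152 in anthers. The fourth, a pectinesterase (DT547464), had 1257 and 1460 in anthers against 505 and 827 in ovules (adjusted p = 0.00835). An alpha-expansin precursor (DW236303) had 1367 and 2639 in ovules against 405 and 656 in anthers, opposite to alpha-expansin 4. Of 11 tubulin probe sets 2, both alpha-tubulins, were called higher in ovules. Of all 1059 named probe sets 203 were, a similar share, and 50 were called higher in anthers. The alpha-tubulin DT572541 had 1121 and 1710 in ovules against 368 and 420 in anthers, and CA993521 373 and 768 against 164 and 90.1. Of 7 probe sets with actin in the product name, actin depolymerizing factors included, 2 were called higher in ovules. These were an actin (CO127458, adjusted p = 0.0287) and an actin depolymerizing factor (DW494884, adjusted p = 0.0411). With the ovule arrays exchanged 0 were called higher in ovules, and 0 reached 2-fold in both genotypes. In the cell cycle list 4 of 12 were called higher in anthers and 1 in ovules, against 1 and 0 with the exchange. Cyclin D3-1 (DN804524) was among the former, with 655 and 965 in anthers against 266 and 657 in ovules.

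Lipid genes included a beta-ketoacyl-CoA synthase (DR461620), which extends fatty acids, with 2653 and 2216 in ovules against 364 and 177 in anthers, and a lipid-transfer protein (DT049951) with 2582 and 2439 against 572 and 164. Alcohol acyltransferase (DT049113), which makes esters, was higher in anthers, at 119 and 491 against 10.7 and 15.2. Histone H1-III (CA993040), a linker histone, had 3226 and 2745 in ovules against 1036 and 183 in anthers (adjusted p = 0.00573), while none of the 3 core histone probe sets was called. Of 32 cytosolic ribosomal protein probe sets 8 were called higher in ovules (5 with the exchange) and 1 in anthers, and 1 reached 2-fold in both genotypes. Over all 1059 named probe sets 203 were called higher in ovules and 50 in anthers. The 27 proteasome and ubiquitin probe sets had medians of 0.12 and -0.06, and 0 were 2-fold apart in both genotypes in either direction.

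**Figure D4:**
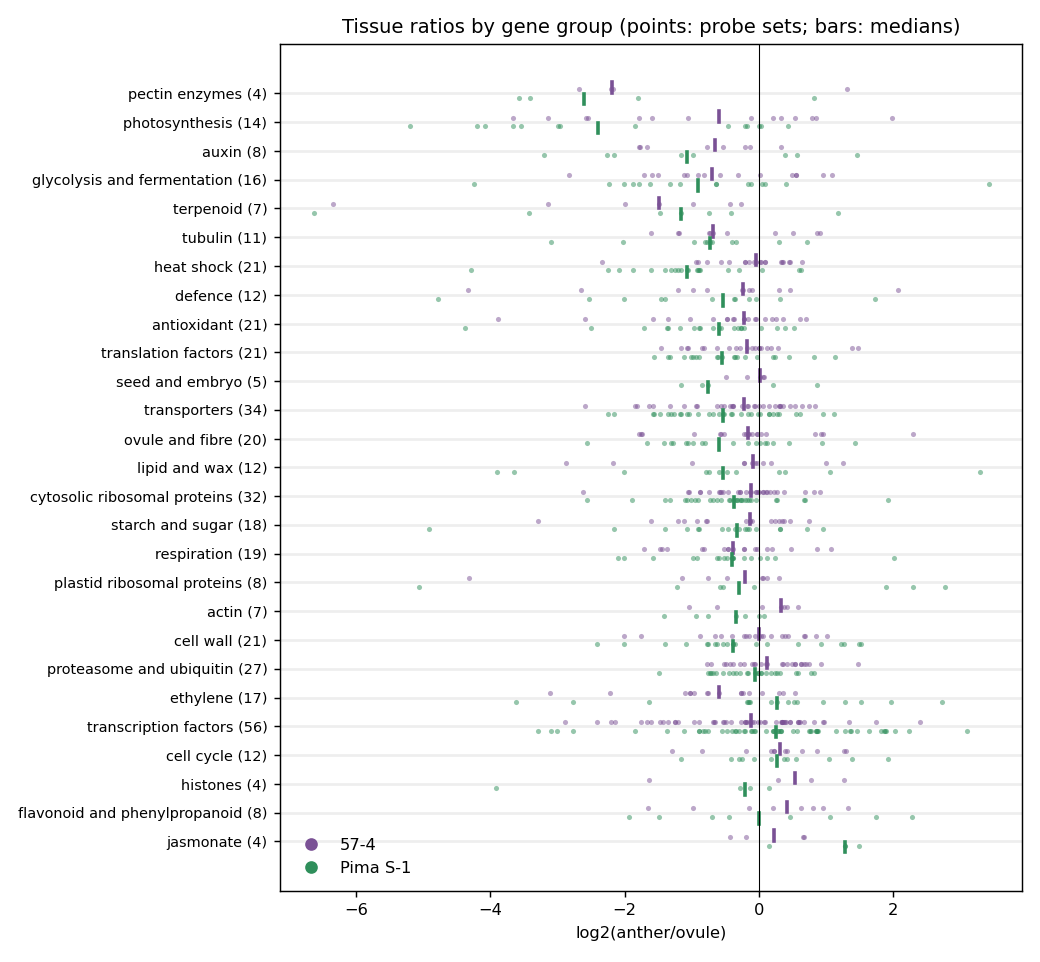
Log2 ratio of anther to ovule signal of the probe sets in each gene group with at least 4 measured probe sets (number in brackets), purple for 57-4 and green for Pima S-1. Points are probe sets and bars their medians, and values left of 0 are higher in ovules. Pectin enzymes, photosynthesis and terpenoid genes have the medians farthest to the left in Pima S-1, and in 57-4 pectin enzymes and terpenoid genes do, while the medians of photosynthesis (-0.59 and -2.40), jasmonate (0.23 and 1.29) and heat shock genes (-0.04 and -1.06) are the furthest apart between the genotypes.

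The 36 accessions that the study names and that could be tied to a probe set correspond to 37 probe sets. Of these 4 were at least 2-fold higher in ovules of both genotypes, 0 in anthers of both, 8 in 1 genotype only, 4 in 1 genotype with a weaker ratio in the other and 16 in neither, and 5 had no ratio in a genotype. With the ovule arrays exchanged 4 were higher in ovules of both, 13 in 1 genotype only, 4 opposite and 8 in neither. The study's list of these genes was drawn up from genotype differences on the same arrays. The (+)-delta-cadinene synthase probe set CO107110 had 112 in 57-4 ovules and 7.8 in 57-4 anthers but was under 50 in both tissues of Pima S-1. The DELLA protein GAI (DT468888), which represses the response to gibberellin, had 954 and 304 in ovules against 556 and 159.5 in anthers (adjusted p = 0.0301). With the ovule arrays exchanged the log2 ratios of DT468888 were 0.87 and -2.58, with no call (adjusted p = 0.282). A brighter probe set of the same name (DW235285) went the other way, with 1226 and 1551 in anthers against 823 and 1167 in ovules. It was not called either (adjusted p = 0.071 with the deposited labels). Cytoplasmic Cu/Zn superoxide dismutase (DQ088818), which removes superoxide, was bright in all samples, at 5187 and 5708 in anthers and 5826 and 9639 in ovules, with no call.

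A contrast of at least 2-fold in 1 genotype, with a ratio in the other that was small (under 0.5 on the log2 scale) or of the other sign and at least 1 away, was found for 794 probe sets (5.7% of 13919). In 57-4 there were 273, of which 104 had the anther excess and 169 the ovule excess. Pima S-1 had 521, of which 349 had the anther excess and 172 the ovule excess. A further 21 were at least 2-fold apart in opposite directions. Another 1818 were past the threshold in 1 genotype and closer to it in the other. With 1 array per condition the difference between the genotypes' contrasts leaves no error term, and it is given as a description without a test. With the ovule arrays exchanged the numbers were 895 in 57-4, 585 in Pima S-1 and 80 in opposite directions.

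In these probe sets the genotypes were more often at least 2-fold apart in ovules than in anthers. Over all probe sets the ovule arrays were also the less alike, with a Pearson correlation of 0.967 against 0.975 for anthers. Whether these probe sets go beyond that was not tested. Of the 349 with an anther excess only in Pima S-1 the genotypes were at least 2-fold apart in anthers in 79 and in ovules in 137. Of the 172 with an ovule excess only in Pima S-1 the same numbers were 22 and 108. For the 169 with an ovule excess only in 57-4 they were 42 and 88.

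The named gene with the widest gap was a small chain of ribulose bisphosphate carboxylase (DN780767), with anther signals of 1616 (57-4) and 120 (Pima S-1) and ovule signals of 1399 and 1515. Its log2 ratio was 0.21 in 57-4 and -3.66 in Pima S-1, and 0.09 and -3.54 with the ovule arrays exchanged, since its ovule signals were alike. Another probe set of the same product (CO496683) had log2 ratios of 0.80 and -0.18. In Pima S-1 anthers 2 regulators stood out the other way. Ethylene-responsive transcription factor 5 (DT047349) had 1233 there against 113 to 186 on the other 3 arrays, and DRE-binding factor 2 (DT455621), of a family that binds the drought-responsive element, 1089 against 128 to 169. A dehydration responsive element binding protein (DT462887) had 1759 (anthers) and 431 (ovules) for Pima S-1, and 76.6 and 149 for 57-4, and its log2 ratios with the exchange were -2.49 and 3.56. For all 3 the highest signal was that of Pima S-1 anthers, which does not depend on the ovule labels.

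In other genes the ovule arrays carried most or part of the gap. The NADPH oxidase RHD2 (DT049218), known from root hair growth in Arabidopsis, had anther signals of 347 (57-4) and 455 (Pima S-1) and ovule signals of 296 (57-4) and 32.4 (Pima S-1). It was at least 9.10-fold higher in anthers in Pima S-1, and had log2 ratios of 2.79 in 57-4 and 0.62 in Pima S-1 with the exchange. A spermidine synthase-like gene (DV849788), of polyamine synthesis, had ovule signals of 932 (57-4) and 118 (Pima S-1) against 231 and 322 in anthers, log2 ratios of -2.01 and 1.45. The chloroplast 50S ribosomal protein L32 (DT461698) had 145 and 489 in anthers and 244 and 71.3 in ovules, log2 ratios of -0.76 and 2.78. With the exchange its log2 ratios were 1.02 and 1.0009. Protein phosphatase 2C (DT463611) had 306 (anthers) and 41.9 (ovules) for Pima S-1, and 62.3 and 84.1 for 57-4, and log2 ratios of 0.32 and 1.86 with the exchange. In L32 both tissues contributed to the gap, and in protein phosphatase 2C the anther arrays were the further apart.

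**Figure D5:**
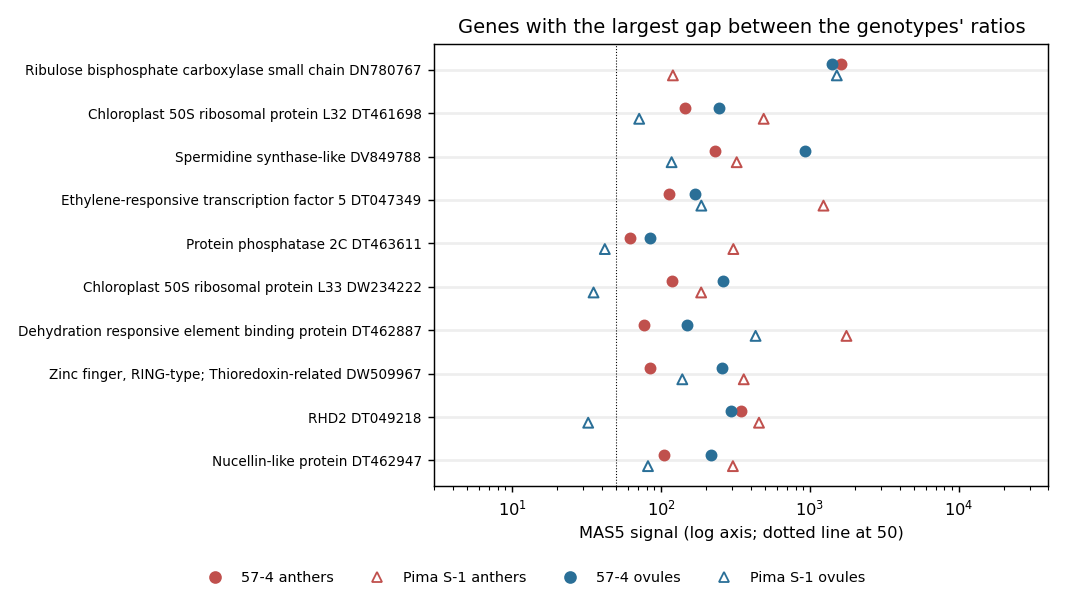
MAS5 signals (horizontal log axis, dotted line at 50) of the 10 named genes with the widest gap between the anther to ovule ratios of the genotypes, coloured as in the plot of leading genes. Ribulose bisphosphate carboxylase is low in Pima S-1 anthers alone (120), and ethylene-responsive transcription factor 5 is high there alone (1233).

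The transcription factor list matched family words such as WRKY, MYB and any zinc finger. It therefore held a RING-type zinc finger protein (DW509967), while ethylene-responsive factors were listed with the ethylene genes. Of its 56 measured probe sets 14 had a contrast in 1 genotype only, beside 10.8% of all named probe sets. Of these 9 were higher in anthers only in Pima S-1 and 5 higher in ovules only in 57-4, and 0 fell in the other classes. Over all 1059 named probe sets these 2 classes held 48 and 27. An anther excess only in 57-4 was found for 6 and an ovule excess only in Pima S-1 for 33. WRKY8 (DT465694) had 938 and 786 in anthers against 738 and 224 in ovules, and WRKY 10 (DT468893) 449.7 and 771 in anthers against 1430.1 and 539.7 in ovules. With the ovule arrays exchanged the 14 became 13, spread over 4 classes as 5, 4, 2 and 2. Factors that agreed between the genotypes included WRKY transcription factor 2 (DT463913), with 3013 and 6225 in ovules against 406 and 640 in anthers (adjusted p = 7.78e-05), and the homeobox protein CO090451, with 557 and 778 against 121 and 91.1. A CCCH zinc finger protein (CO123405) was the only member of this list 2-fold higher in anthers of both, at 251 and 522 against 75.1 and 111.

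Heat shock proteins, chaperones that protect or refold proteins, were higher in ovules only in Pima S-1 in 5 of 21 probe sets, and 0 had another contrast in 1 genotype only. Of all 1059 named probe sets 33 had an ovule excess only in Pima S-1, and 114 had any contrast in 1 genotype only. Heat shock protein 90 (DT560821) had 6011 and 4650 in anthers against 6625 and 11486 in ovules. A low molecular weight heat shock protein (DW513189), counted apart because its ratio in 57-4 was only weaker, had 8423 and 7357 in anthers against 12486 and 22358 in ovules, and the last value was the highest signal of that array. The high molecular weight heat shock protein DN780720 was higher in ovules of both genotypes, at 287 and 2452 against 57.0 and 126 (adjusted p = 0.00289). With the exchange 4 of 21 were higher in ovules of both genotypes and 1 had a contrast in 1 genotype only.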

How the data were processed

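The study hybridized 1 Affymetrix cotton array per tissue and genotype with pooled RNA. As deposited, the values are linear intensities (MAS5 signals), which the authors' Affymetrix software scaled to a common mean; the software version is not given in the sources used here. With 2% of values left out at each end, the mean was 250.1 on every array. Precision is limited by how few arrays there are. The floor of 50 limits ratios of dim probe sets.

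Log2 ratios, classes and groups were computed in Python 3.11.15 (pandas 2.3.3). The tissue effect was tested with limma 3.58.1 in R 4.3.3 (genotype and tissue as terms, empirical Bayes with an intensity trend, Benjamini-Hochberg adjustment over all 14484 probe sets that reached 50 on 2 or more arrays), with 1 residual and 6.67 prior degrees of freedom. On simulated data with 200 changed probe sets among 14484, 42.5%, 83.0% and 83.0% of log2 changes of 1, 1.5 and 2 were recovered, with 6, 5 and 0 false calls. The simulated noise was normal, with its spread set by the median gap at each signal level, so the widest gaps were under-represented. Far fewer probe sets were changed than the 2790 called in the data. The number of false calls in the data cannot be read from this simulation.

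Members and lists were chosen with earlier results of these data known. Accessions and product names came from the study's additional files, whose ovule list is held in part; their signals served only to compare array labels, and their log ratios and p-values were not used. Named genes were the 12 with the largest smaller-of-2 ratios in each direction and a brighter signal of at least 200 in both genotypes, the 10 with the widest gap between genotypes, those of the study's 46 accessions tied to a probe set (36), up to 4 members per group by mean ratio, and 2 unnamed probe sets per direction. Further members were named after their values were seen: triosephosphate isomerase, the chlorophyll a/b binding protein, DRE-binding factor 2, WRKY8, WRKY 10, heat shock protein 90, the low molecular weight heat shock protein, cyclin D3-1 and farnesyl pyrophosphate synthetase 1. After the matched names were seen, words that hit other proteins (ethylene in methylene, actin in acting, glucan in xyloglucan, AP2 in BAP2, initiation factors of transcription, aldolases other than bisphosphate aldolase) were restricted, and spelled-out forms of ACC, bHLH and DREB were added. Alternatives were other floors and scalings, centring, probe sets designed for 1 transcript, exchanged ovule arrays, a log2 threshold of 1.5, other limma settings (3 of them chosen after seeing the data) and each array left out. No sequences were printed, because none of the tables used here tie the probe sets to sequence.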

Additional observations from a re-analysis of the deposited data

Results flagged for a closer look

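Of the 21 probe sets at least 2-fold apart in opposite directions in the 2 genotypes, 6 have a product name, and in each the anther to ovule log2 ratio was lower in 57-4 than in Pima S-1. The difference was not tested, since each genotype has 1 array per tissue. The ratio in 57-4 minus that in Pima S-1 was -3.46 for the spermidine synthase-like gene DV849788, -3.04 for chloroplast 50S ribosomal protein L33 (DW234222), -2.97 for a RING-type zinc finger protein (DW509967), -2.95 for a nucellin-like protein (DT462947), -2.66 for farnesyl pyrophosphate synthetase 1 (DT466688) and -2.36 for a heavy metal transport protein (DW238663).

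Farnesyl pyrophosphate synthetase 1 had 2304 in Pima S-1 anthers against 318 in 57-4 anthers, and 889.5 and 1021 in ovules of 57-4 and Pima S-1. Its ratios, -1.48 in 57-4 and 1.17 in Pima S-1, thus differed mainly through the anther arrays.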

How the results depend on the processing

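Probe sets at least 2-fold higher in both genotypes numbered 2457 in anthers and 1375 in ovules without a floor, 1066 in anthers with scaling on the hybridization controls, 467 in anthers with centring, 331 and 305 among probe sets designed for 1 transcript, and 183 and 399 at a log2 threshold of 1.5. Contrasts in 1 genotype only, in 57-4 and in Pima S-1, numbered 1996 and 2622 without a floor, 113 and 286 with a floor of 100, 139 and 248 for 1 transcript, 66 and 183 at the threshold of 1.5, and in 57-4 895 with exchanged ovule arrays. limma called 2429 higher in anthers with scaling on the controls, 547 and 403 (anthers, then ovules) for 1 transcript, 567 and 645 without the genotype term, 929 and 853 without the intensity trend, and 0 and 0 with a floor of 100 or without the filter. In the last 2 fits 2395 and 6864 probe sets had 4 equal floored values, the prior degrees of freedom fell to 0.815 and 0.734, and 3117 and 3275 had an unadjusted p under 0.05. Added after the data were seen, a floor of 100 with a signal of at least 100 on at least 2 arrays gave 1606 and 1285, and probe sets over 50 on all arrays 1449 and 1062. With the ovule arrays exchanged, also added after the data were seen, it called 846 and 912. Without any 1 array and, for want of residual degrees of freedom, without the genotype term, 0 were called in either direction (range 0 to 0), where the lone array of a tissue is assumed to vary like the others. The genotype term already compares the tissues within each genotype. No paired analysis by replicate was possible because each condition has 1 array of pooled RNA.

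Restricted to 1 transcript, the photosynthesis median (mean of both genotypes) turned from -1.77 to 0.18, and those of other lists were -0.47 for pectin enzymes, -0.90 for ovule and fibre, 0.30 for seed and embryo, -0.047 for cytosolic ribosomal proteins, -0.018 for translation factors, -2.77 for histones, 0.56 for cell cycle, 0.23 for actin, -0.96 for lipid and wax, -1.16 for terpenoid and 0.038 for transporters. Without a floor terpenoid was -1.22 and gibberellin -1.31. Gibberellin was -0.68 with scaling on the controls and -1.01 with centring, and seed and embryo -0.050 with quantile normalization. The other 185 of 202 group values moved by less than the spread between genotypes. With exchanged ovule arrays the log2 ratios of DV849788 turned to 0.98 and -1.53 (57-4, then Pima S-1), those of DW234222 to 1.25 and -0.50, that of DT462947 in 57-4 to 0.36, and those in Pima S-1 of the lipoxygenase DN759923, succinate dehydrogenase subunit 4 (DW482123) and a ubiquitin carrier protein (DW227239) to -0.22, -0.80 and 0.17. The limma effect of DT468888 turned from -0.85 to 0.046 without Pima S-1 anthers. Of 2206 limma effects of named genes, 1465 stayed on their side of the threshold with their direction, 716 lost the call and 24 gained one. The causes were not tested.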
